A study of Mus musculus with 19 samples.

Results

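The response of the male (XY) liver to food poor in protein and fat was read from 9 of the 19 libraries of the series, namely 5 libraries of malnourished males and 4 of control males, chosen by the sex and diet in the labels. All animals were wild-type C57BL/6J mice, killed at 8 weeks of age after light isoflurane anaesthesia and CO2. Controls ate food with 20% protein, 15% fat and 65% carbohydrate. Malnourished mice ate isocaloric food in which protein made up 7%, fat 5% and carbohydrate 88%. Mothers were put on one or the other food when their pups were 8 days old, and the pups were moved onto the same food at weaning on day 21 and ate it for 5 more weeks. The remaining 10 libraries came from females on the same foods (5 control, 5 malnourished). They served to estimate the spread between mice and to ask whether a male response differed from the female one. The labels name no litter, cage or hour of collection, so each p-value reflects only how single animals varied.

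The liver meets dietary amino acids and fats first. When amino acids run short, the kinase encoded by Eif2ak4 slows translation and lets the transcription factor ATF4 turn on genes for amino acid synthesis and uptake, while nitrogen from surplus amino acids is cleared by the urea cycle. The receptor PPARα, bound to its partner RXR, turns on the burning of fatty acids and the making of ketone bodies. In mice many liver genes also differ between the sexes, because pulses of growth hormone in males act through STAT5B to keep a male pattern that includes the major urinary proteins (Mup genes).

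Library totals of the 9 males ran from 22891805 to 32828713 counts. The first principal component of these libraries held 51.1% of their variance and separated the groups, with controls between 22.3 and 45.3 and malnourished males between -45.4 and -5.97. Malnourished male 1 lay nearest to the controls and male control 4 nearest to the malnourished. Male control 4 and malnourished male 5 carry label numbers from a separate series (beginning with 62) from the other males (56). What that series stands for was not given, and values without it, or without male control 4 alone, are given beside several results. All 9 hepatocyte markers passed the expression filter, but so did all 11 Kupffer cell markers, so passing it cannot check the liver label. Albumin, a hepatocyte marker, alone took between 7.62% and 14.0% of all counts.

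Of 13391 genes tested with the edgeR quasi-likelihood method, 1997 (14.9%) were called at a Benjamini-Hochberg adjusted p below 0.05. They comprised 952 that rose (7.11%) and 1045 that fell (7.8%). At least a 2-fold change was seen in 383 genes that rose and 325 that fell, and at least a 16-fold change in 21 and 23. Normalized levels (CPM, counts scaled by library size and edgeR's TMM factors) of the 2 groups did not overlap for 1694 tested genes (12.7%), and 1325 of these were also called. The median log2 change of all tested genes was near 0 (-0.00073). Among called genes 47.7% were higher, and this became 64.8% (1308 higher, 709 lower) when libraries were scaled by their totals alone.

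**Figure D1:**
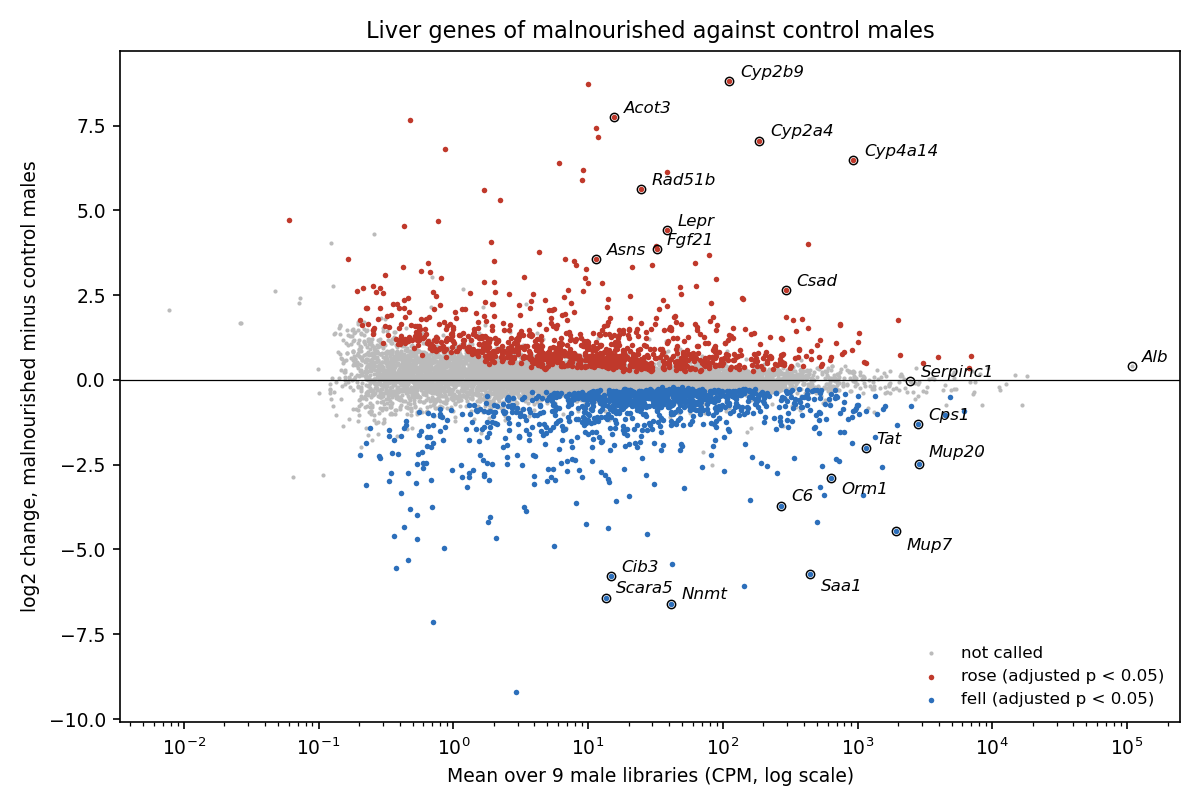
Each point is 1 of 13391 tested genes, with its mean CPM over the 9 male libraries on a log axis and the log2 change, malnourished minus control, on the vertical axis. Red points rose, blue points fell and grey points were not called, and labelled genes include Cyp2b9 at 8.80 and Nnmt at -6.60.

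Genes of the amino acid shortage response rose. Asns, which makes asparagine, rose 11.8-fold, and Fgf21, a hormone that the liver releases under protein shortage, rose 14.6-fold. Of 21 tested targets of ATF4, 10 rose (47.6%, against 7.11% of all tested genes) and 2 fell, with a median change of 0.76 on the log2 scale. This list was drawn up with earlier results of these data known, as were all lists below. Other members that rose were Nupr1, a stress-induced chromatin protein, Vldlr, a lipoprotein receptor, the transcription factor Atf5, and Aldh18a1, the first enzyme of proline synthesis. Atf5 and Aldh18a1 fall outside the rule for naming genes and were chosen after their values were seen.

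The 300-base promoter windows of Asns, Fgf21, Vldlr and Nupr1 are shown because each holds the core of the amino acid response element, the motif that ATF4 dimers bind. They span 250 bases before to 50 after a RefSeq start site (GRCm38.p6, the mm10 build), written 5′ to 3′ on the strand of the gene. The motif searched was TGATGNAA on both strands, and capitals mark each match.
Asns, chr6:7693160-7693459, minus strand: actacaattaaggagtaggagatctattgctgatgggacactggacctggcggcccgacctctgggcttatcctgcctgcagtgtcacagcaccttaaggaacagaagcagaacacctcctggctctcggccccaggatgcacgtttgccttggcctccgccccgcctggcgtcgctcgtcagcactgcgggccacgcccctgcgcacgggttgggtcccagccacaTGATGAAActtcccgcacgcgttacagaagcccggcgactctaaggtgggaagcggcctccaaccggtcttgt
Fgf21, chr7:45615441-45615740, minus strand: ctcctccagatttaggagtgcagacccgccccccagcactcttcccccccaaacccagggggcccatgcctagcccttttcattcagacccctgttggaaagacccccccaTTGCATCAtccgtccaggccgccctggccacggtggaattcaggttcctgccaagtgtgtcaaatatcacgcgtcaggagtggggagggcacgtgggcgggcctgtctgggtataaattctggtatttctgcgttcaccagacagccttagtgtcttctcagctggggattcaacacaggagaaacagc
Vldlr, chr19:27216770-27217069, plus strand: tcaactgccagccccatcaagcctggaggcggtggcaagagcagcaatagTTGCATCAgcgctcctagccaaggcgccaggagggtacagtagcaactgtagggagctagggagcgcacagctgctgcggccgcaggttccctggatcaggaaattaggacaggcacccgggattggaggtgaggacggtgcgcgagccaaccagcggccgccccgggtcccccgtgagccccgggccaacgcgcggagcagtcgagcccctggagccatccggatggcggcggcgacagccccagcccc
Nupr1, chr7:126625421-126625720, minus strand: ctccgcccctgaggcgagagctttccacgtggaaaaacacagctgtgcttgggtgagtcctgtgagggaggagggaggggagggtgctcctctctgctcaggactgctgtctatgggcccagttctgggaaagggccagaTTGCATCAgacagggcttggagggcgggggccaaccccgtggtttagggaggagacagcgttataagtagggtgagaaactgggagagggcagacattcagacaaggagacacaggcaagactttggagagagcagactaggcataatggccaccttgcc
The match begins 23 bases before the start site in Asns, 139 before it in Fgf21, 200 before it in Vldlr and 110 before it in Nupr1. In Fgf21, Vldlr and Nupr1 it lies on the opposite strand, where the same 8 letters read TTGCATCA. RefSeq windows were found for 20 members of the ATF4 list, and 8 of them (40%) held the motif. So did 4.51% of 27025 genes with a window and 2.89% of 10443 tested genes with a window. The list was built from known ATF4 targets, so its share of 40% describes the list and not these livers. A match is not proof of binding, and members without one, such as Aldh18a1, also rose.

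In single mice, Asns (chromosome 6, 7675169 to 7693254) stood at 0.835, 2.69, 1.81 and 1.28 CPM in male controls 1 to 4. It stood at 17.4, 20.7, 19, 31.1 and 8.52 CPM in malnourished males 1 to 5, a log2 change of 3.56 ± 0.44 (SE, adjusted p = 1.8e-05). Every malnourished male lay above every control, and the lowest of them was malnourished male 5. Fgf21 (chromosome 7, 45613886 to 45615490) stood at 0.944 to 5.79 CPM in controls and at 33.9, 40.8, 85.7, 83.1 and 31.7 CPM in malnourished males (3.87 ± 0.62, adjusted p = 0.00022). Vldlr rose from 0.653 ± 0.275 (SD, n = 4) to 5.49 ± 1.67 CPM (n = 5), by 3.05 ± 0.38 on the log2 scale (adjusted p = 1.9e-05), and Nupr1 from 1.95 ± 0.68 to 15.7 ± 9.7 CPM, by 3.01 ± 0.39 (2.9e-05). Neither gene overlapped between the groups. The mRNA of Atf4 itself, whose protein is controlled mainly at translation, gave 0.02 ± 0.14 (adjusted p = 0.94), and Eif2ak4 gave 0.14 ± 0.10 (0.38). Cebpb, an ATF4 partner, was 1 of the 2 that fell (-1.32 ± 0.34, 0.011) and was likewise chosen after its values were seen. Without male control 1, which held 64.9 CPM, it was not called (-0.79, adjusted p = 0.10).

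Enzymes that make serine rose with Asns. Phgdh, the first step from glucose to serine, stood at 0.0977 to 0.506 CPM in controls and at 2.08, 2.94, 2.25, 8.21 and 1.3 CPM in malnourished males (3.51 ± 0.68, adjusted p = 0.0014). Psat1, the next step, stood at 1.03 to 2.53 CPM and at 9.72, 22.3, 14.8, 28.6 and 5.52 CPM (3.28 ± 0.52, 0.0002). Malnourished male 4 was highest for both, and without it Phgdh gave 2.90. Of 16 tested genes of serine synthesis and folate one-carbon transfer 6 rose (37.5%, against 7.11% of all tested genes) and 1 fell (6.25%, against 7.8%). Their median was 0.38.

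Of 20 genes of the methionine cycle and transsulfuration, 8 fell (40%, against 7.8% of all tested genes), 2 rose and 10 were not called, with a median of -0.05 on the log2 scale. Nnmt (chromosome 9, 48591877 to 48605153), which uses methyl groups to clear nicotinamide, stood at 144, 91.5, 93.1 and 38.8 CPM in controls and at 0.94, 0.458, 0.782, 0.733 and 1.76 CPM in malnourished males. Its log2 change was -6.60 ± 0.35 (adjusted p = 1.9e-10), and -7.24 without the label series 62. Gnmt, which burns surplus methyl groups, fell by 1.11 ± 0.28 on the log2 scale (0.009), and Bhmt, which remakes methionine from betaine, by 1.68 ± 0.33 (0.0014). Bhmt was uneven, at 1471 CPM in malnourished male 1 and 261 to 787 CPM in the others, against 1837 to 2454 CPM in controls. Csad, the taurine synthesis enzyme, rose from 52.3 to 129 CPM in controls to 308, 461, 574, 555 and 468 CPM (2.65 ± 0.33, adjusted p = 1.6e-05).

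The urea cycle fell as a group, with 6 of 8 tested members lower (75.0%, against 7.8% of all tested genes), 0 higher and a median of -0.68. Cps1, the entry enzyme of the cycle, stood at 4447, 4029, 4113 and 4237 CPM in controls and at 2299, 1635, 1406, 972 and 2181 CPM in malnourished males. Ass1, which joins citrulline to aspartate, stood at 2527 to 3475 CPM and at 1325, 931, 882, 1057 and 1641 CPM. Both fell in every malnourished male, by 1.31 ± 0.26 (adjusted p = 0.0018) and 1.34 ± 0.23 (0.0005) on the log2 scale. Arg1, which releases urea, fell by 0.74 ± 0.16 (0.003) and Otc, the ornithine step, by 0.43 ± 0.10 (0.0073).

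Genes that break down single amino acids fell in part. Of 19 genes that break down branched-chain amino acids, 7 fell (36.8%, against 7.8% of all tested genes) and 0 rose, with a median of -0.27. The smallest adjusted p among them belonged to Acadsb, an acyl-CoA dehydrogenase (-0.57 ± 0.11, adjusted p = 0.0011). Of 17 genes of tryptophan breakdown and NAD synthesis, 6 fell (35.3%, against 7.8%) and 1 rose (5.88%, against 7.11%), with a median of -0.31. Among them Acmsd, which diverts tryptophan carbon away from NAD, stood at 46.7, 29.6, 28.2 and 23.6 CPM in controls and at 7.37 to 9.74 CPM in malnourished males (-1.96 ± 0.22, 5.8e-06). Tdo2, the first tryptophan oxygenase, gave -0.73 ± 0.15 (0.0021) and Kynu, a kynureninase, -0.46 ± 0.09 (0.0012).

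Carriers that bring amino acids into the hepatocyte moved in both directions. Of 21 tested, 9 fell (42.9%, against 7.8% of all tested genes) and 4 rose (19%, against 7.11%). Slc43a1, a carrier of large neutral amino acids, stood at 8.86, 13.4, 13.4 and 10.1 CPM in controls and at 3.06, 1.08, 1.6, 2.12 and 2.64 CPM in malnourished males (-2.45 ± 0.26, adjusted p = 3.4e-06). The glutamine carrier Slc38a3 fell by 0.99 ± 0.14 (7.6e-05) and the neutral amino acid carrier Slc38a4 by 0.97 ± 0.13 (4.5e-05), both without overlap. Among 20 cytosolic tRNA synthetases only Cars, which charges cysteine, was called higher (0.67 ± 0.18, adjusted p = 0.017), and 2 were lower. These shares, 5% and 10%, lay near the 7.11% and 7.8% of all tested genes.

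Fat-burning genes rose, among them acyl-CoA thioesterases, which split fatty acids from coenzyme A. Of 11 thioesterases tested 8 rose (72.7%, against 7.11% of all tested genes) and 1 fell, with a median of 0.66. A run of them lies side by side on chromosome 12, plus strand, of mm10: Acot2 (83987861 to 83993873), Acot4 (84038379 to 84048601), Acot3 (84052144 to 84060402) and Acot6 (84100654 to 84111349). Acot4 stood at 8.28, 7.94, 11.2 and 18.5 CPM in controls and at 45.7, 94.8, 63, 89 and 94.1 CPM in malnourished males (2.75 ± 0.27, adjusted p = 1.6e-06). Acot2 rose by 3.39 ± 0.41 (1.1e-05) and Acot6 by 1.90 ± 0.24 (2e-05). Acot3 was nearly silent in controls, at 0 to 0.337 CPM, and stood at 3.84, 32, 6.61, 44.6 and 52.1 CPM in malnourished males, a fitted log2 change of 7.76 ± 1.01 (2.6e-05) that became 9.30 without male control 4. Malnourished males 1 and 3 were the lowest of the 5 for Acot2, Acot3 and Acot4. Reads of these copies can be shared, so which copy changed is uncertain.

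In mitochondrial fatty acid oxidation 10 of 19 tested genes rose (52.6%) and 0 fell, with a median of 0.41. Acadl, a long-chain dehydrogenase, rose from 145 to 192 CPM in controls to 210 to 314 CPM (0.66 ± 0.12, adjusted p = 0.00078). Decr1 and Eci1, which handle unsaturated chains, rose by 0.72 ± 0.12 (0.00036) and 0.71 ± 0.13 (0.00057). Cpt1a, the gate into mitochondria, gave -0.16 ± 0.16 (0.54), with 325 to 492 CPM in malnourished males and 329 to 558 CPM in controls.

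In peroxisomal oxidation 7 of 25 genes rose (28%, against 7.11% of all tested genes) and 2 fell (8%, against 7.8%). Hao2, a hydroxyacid oxidase, stood at 0.0389 to 0.303 CPM in controls and at 6.39, 44.8, 3.97, 24.1 and 27.1 CPM in malnourished males (7.16 ± 0.74, adjusted p = 2.4e-06, and 7.98 without male control 4). Abcd2, which carries very long fatty acids into peroxisomes, rose by 2.19 ± 0.30 (5e-05), the thiolase Acaa1b by 1.62 ± 0.21 (2.6e-05) and the bifunctional enzyme Ehhadh by 1.79 ± 0.32 (0.00058). Ehhadh reached 1133 CPM in malnourished male 2 and stood at 246 CPM in malnourished male 1, just above the highest control at 241 CPM.

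Ketone body genes moved with them, with 6 of 8 higher (75.0%) and 1 lower, and a median of 0.66. Bdh1, the last step of their synthesis, stood at 244, 287, 284 and 272 CPM in controls and at 412, 506, 369.8, 407 and 477 CPM in malnourished males. It rose by 0.68 ± 0.11 on the log2 scale (adjusted p = 0.00024), and the ketone carriers Slc16a1 and Slc16a7 by 1.10 ± 0.15 and 1.24 ± 0.17 (both 5.5e-05). None of these genes overlapped between the groups.

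Some genes of fat uptake rose too. Of 20 genes of fatty acid uptake and binding, 7 rose (35%, against 7.11% of all tested genes) and 0 fell, with a median of 0.23. Cd36, a fatty acid importer, stood at 6.32, 7.44, 12.7 and 27.1 CPM in controls and at 29.7, 142, 57.2, 95 and 65.7 CPM in malnourished males (2.54 ± 0.40, adjusted p = 0.00021, and 3.18 without male control 4). Lpl, lipoprotein lipase, rose by 1.47 ± 0.20 (4e-05) and Slc27a1, a fatty acid carrier, by 0.89 ± 0.20 (0.0039). In lipoprotein assembly 4 of 28 rose (14.3%, against 7.11% of all tested genes) and 1 fell (3.57%, against 7.8%). Angptl8, an inhibitor of lipase action, rose by 1.56 ± 0.31 (0.0018), the lipase cofactor Apoc2 by 1.01 ± 0.22 (0.0033) and the secretion factor Tm6sf2 by 0.83 ± 0.15 (0.00071), while Apob, the backbone of these particles, gave -0.29 ± 0.14 (0.16).

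Of 23 lipid droplet and fat storage genes 6 rose (26.1%, against 7.11% of all tested genes) and 3 fell (13%, against 7.8%). Lpin1, a phosphatidate phosphatase that also acts with PPARα, stood at 687, 843, 779 and 104 CPM in controls and at 246, 104, 143, 76.7 and 44.5 CPM in malnourished males (-2.30 ± 0.47, adjusted p = 0.0022). Male control 4 lay within the malnourished range for this gene. Mogat1, which builds diglycerides, rose by 2.40 ± 0.50 (0.0022) from a low level of 0.0779 to 0.236 CPM, and gave 2.99 without the label series 62.

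Of 26 genes of glycolysis and fructose use 2 rose (7.69%, against 7.11% of all tested genes) and 3 fell (11.5%, against 7.8%), shares near the background. Pfkfb3, which speeds glycolysis, stood at 93.5, 72.5, 32.1 and 8.59 CPM in controls and at 14.5, 5.82, 4.98, 5.9 and 5.85 CPM in malnourished males (-2.81 ± 0.50, adjusted p = 0.00068). Its level in male control 4 lay below that in malnourished male 1. The fructose carrier Slc2a5 fell by 1.47 ± 0.29 (0.0016), the pentose pathway enzyme Tkt rose by 0.65 ± 0.14 (0.0032), and pyruvate kinase Pklr gave 0.45 ± 0.24 (0.23). Among 16 glycogen genes only Ppp1r3c, which directs glycogen synthase to glycogen, was called (1.53 ± 0.32, adjusted p = 0.0024).

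Among 19 genes of insulin and starvation signalling 1 rose (5.26%, against 7.11% of all tested genes) and 4 fell (21.1%, against 7.8%). The one that rose was Lepr, the leptin receptor (chromosome 4, 101717404 to 101815352), at 3.05, 2.49, 2.1 and 4.61 CPM in controls and at 24.8, 140, 66.8, 44.4 and 58 CPM in malnourished males (4.43 ± 0.44, adjusted p = 1.6e-06, 21.5-fold). Trib1, a pseudokinase that limits fat synthesis, fell by 1.30 ± 0.18 (4.9e-05) and Pik3r1, the regulatory subunit of the insulin-activated kinase, by 0.85 ± 0.20 (0.0072), both without overlap. The insulin receptor substrate Irs2 gave 0.50 ± 0.22 (0.13).

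The series title names nutrient-sensing nuclear receptors. Of 40 receptor genes tested 4 rose (10%, against 7.11% of all tested genes) and 7 fell (17.5%, against 7.8%). Nr1i3, which encodes the xenobiotic sensor CAR, stood at 20.9, 14.3, 26.1 and 28.6 CPM in controls and at 72.9, 56.7, 63.2, 78.4 and 79.5 CPM in malnourished males (1.64 ± 0.17, adjusted p = 2e-06). Pparg, a driver of fat storage, rose by 1.90 ± 0.27 (6.2e-05) from 1.56 to 4.07 CPM to 6.43 to 14.4 CPM, Rarg, a retinoic acid receptor, by 0.99 ± 0.16 (0.0003), and Ppard by 0.87 ± 0.19 (0.004). Ppard did overlap, because male control 1, at 19.5 CPM, lay above malnourished male 4, at 14.8 CPM. Among those that fell, Rxra, the shared partner of many receptors, stood at 548, 602, 573 and 572 CPM in controls and at 502, 370, 321, 277 and 485 CPM in malnourished males (-0.55 ± 0.14, 0.012). Hnf4a, a keeper of hepatocyte identity, fell by 0.52 ± 0.14 (0.013), and without male control 2 it gave -0.44 (adjusted p = 0.059). In a fit of the 9 male libraries alone neither Rxra (0.074) nor Hnf4a (0.075) was called. Among 24 receptor coregulators 1 rose, Trim24, which restrains retinoic acid receptors (0.85 ± 0.19, 0.0038), and 3 fell. These shares, 4.17% and 12.5%, lay near the 7.11% and 7.8% of all tested genes.

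**Figure D2:**
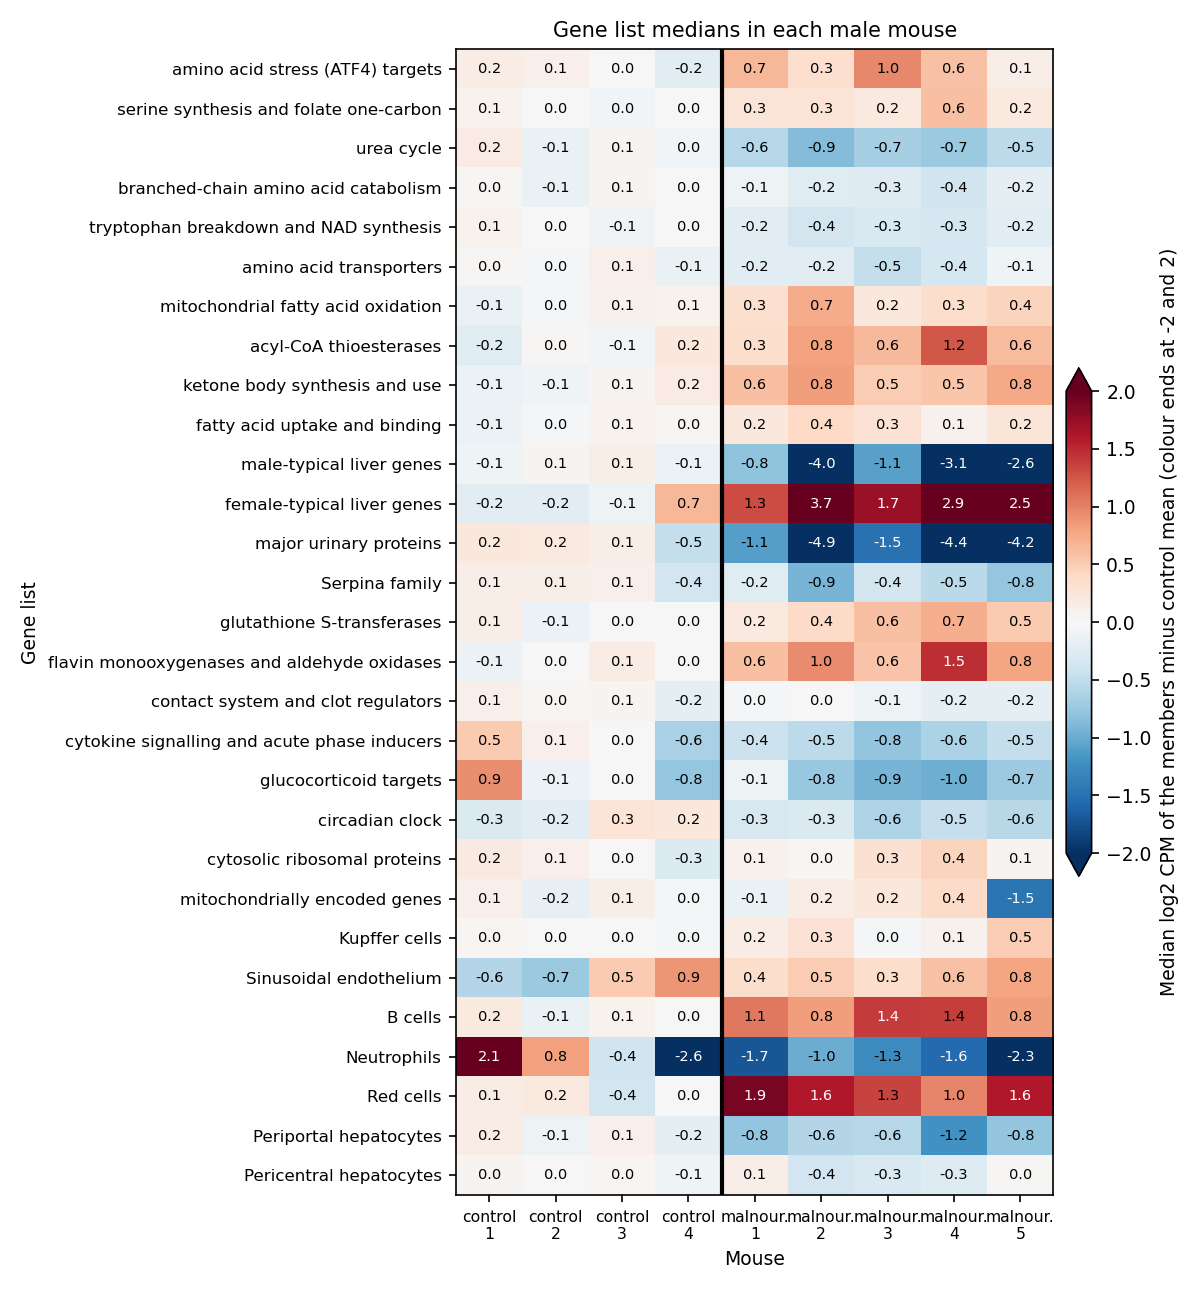
Rows are gene lists, columns are the 9 male mice, and each cell gives the median log2 CPM of the list members minus their control mean, with colours ending at -2 and 2. The urea cycle was lower and ketone body genes were higher in all 5 malnourished males, whereas male-typical genes were far lower in malnourished males 2, 4 and 5 than in 1 and 3.

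Male-typical genes fell and female-typical genes rose. Of 32 male-typical genes 24 fell (75.0%, against 7.8% of all tested genes) and 0 rose, with a median of -1.79. Of 36 female-typical genes 26 rose (72.2%, against 7.11%) and 0 fell, with a median of 3.37. The mice differed widely. The median of the male-typical list, relative to controls, was -0.80, -4.02, -1.08, -3.10 and -2.61 in malnourished males 1 to 5, and that of the female-typical list was 1.31, 3.70, 1.72, 2.94 and 2.54. Malnourished males 1 and 3 were the least changed in both lists, yet their ATF4 target medians, 0.66 and 0.96, were the highest of the 5.

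Mup genes, which encode urinary pheromone carriers, fell in 17 of 21 cases (81.0%) and rose in 0, with a median of -2.47. Mup7 (chromosome 4, 60066469 to 60070475) stood at 4028, 3692, 4709 and 3908 CPM in controls and at 725, 10.4, 175, 8.83 and 14 CPM in malnourished males (-4.45 ± 0.93, adjusted p = 0.0024, and -6.27 without malnourished male 1). Mup20, the pheromone darcin, stood at 3505 to 6057 CPM and at 1700, 94, 2357, 282 and 270 CPM (-2.47 ± 0.63, 0.01). Without malnourished male 3 it gave -3.15, and in the fit of male libraries alone it was not called (0.061). Mup3 was not called (-0.74 ± 0.33, 0.14), with malnourished males 1 and 3 inside the control range, but was without malnourished male 3 (-1.04, 0.037). The Mup copies are close in sequence, so the split of reads between them is uncertain.

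Other male-typical genes were spread in the same way. Hsd3b5, a steroid enzyme, stood at 360 to 497 CPM in controls and at 432, 19, 263, 20.1 and 94 CPM in malnourished males (-1.36 ± 0.66, adjusted p = 0.18). Elovl3, a fatty acid elongase, stood at 287 to 632 CPM and at 678, 23.3, 416, 24.1 and 99 CPM (-0.77 ± 0.67, 0.48). Cyp4a12a, a fatty acid hydroxylase, stood at 178 to 320 CPM and at 248, 11.6, 152, 29.6 and 19.5 CPM (-1.43 ± 0.58, 0.11). None of the 3 was called over 5 mice. Without malnourished male 1, Hsd3b5 (-2.07, adjusted p = 0.034) and Cyp4a12a (-2.19, 0.0077) were called, and limma-voom called both over all mice (-2.06, 0.041 and -2.01, 0.019). In each of them malnourished males 2, 4 and 5 lay below every control, and malnourished male 1 lay within or above the control range. By contrast, Cib3, a calcium-binding protein, fell in all, from 31.2 to 34.5 CPM to 0.627, 0.229, 1.69, 0.147 and 0.243 CPM (-5.78 ± 0.39, 1.1e-08, and -6.73 without malnourished male 3). Susd4, a complement regulator, fell by 4.35 ± 0.50 (6.7e-06), and C6, a component of complement, by 3.70 ± 0.42 (6.8e-06). Without malnourished male 1 these gave -5.41 and -4.37. Moxd1, a monooxygenase-like protein, had 672 counts over the 4 controls and 1 count over the 5 malnourished males.

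Female-typical genes showed the mirror image. Cyp2b9, a cytochrome P450, stood at 0.182, 0.234, 0.244 and 1.04 CPM in controls and at 16.5, 438, 30.2, 266 and 256 CPM in malnourished males (8.80 ± 0.92, adjusted p = 2.6e-06, and 9.85 without male control 4). Cyp2a4, a steroid hydroxylase, stood at 1.4 to 3.3 CPM and at 18.2, 753, 67.3, 610 and 226 CPM (7.06 ± 0.82, 8.3e-06). Malnourished males 1 and 3 were again the lowest, though above every control. Slc22a26, an organic anion carrier, rose by 6.18 ± 0.89 (7.3e-05). The prolactin receptor Prlr was more even, at 17.2 to 44.1 CPM in controls and 154, 137, 77.5, 126 and 135 CPM (1.86 ± 0.23, 1.8e-05).

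Growth hormone signalling maintains the sex pattern of the liver. Of 18 of its genes tested 3 rose (16.7%, against 7.11% of all tested genes) and 2 fell (11.1%, against 7.8%), with a median of -0.08 on the log2 scale. Ghr, the receptor, gave -0.30 ± 0.15 (adjusted p = 0.19), Stat5b 0.28 ± 0.16 (0.28) and Igf1, the growth factor made in response, -0.14 ± 0.17 (0.64, and 0.02 without the label series 62). Cish, an immediate target of growth hormone pulses, stood at 19.4, 111, 64.2 and 67.5 CPM in controls and at 4.94, 15.9, 2.8, 98.1 and 14.1 CPM in malnourished males (-1.27 ± 0.71, 0.24). The single high value belonged to malnourished male 4, and without it Cish was called (-2.76, adjusted p = 0.0026), as it was with limma-voom (-2.56, 0.02). The hour of collection relative to a hormone pulse was not given. STAT5 elements (TTCNNNGAA) were found in the windows of 6 of 27 female-typical genes with a RefSeq window (22.2%), in 2 of 23 male-typical ones (8.7%) and in 9.55% of all genes.

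**Figure D3:**
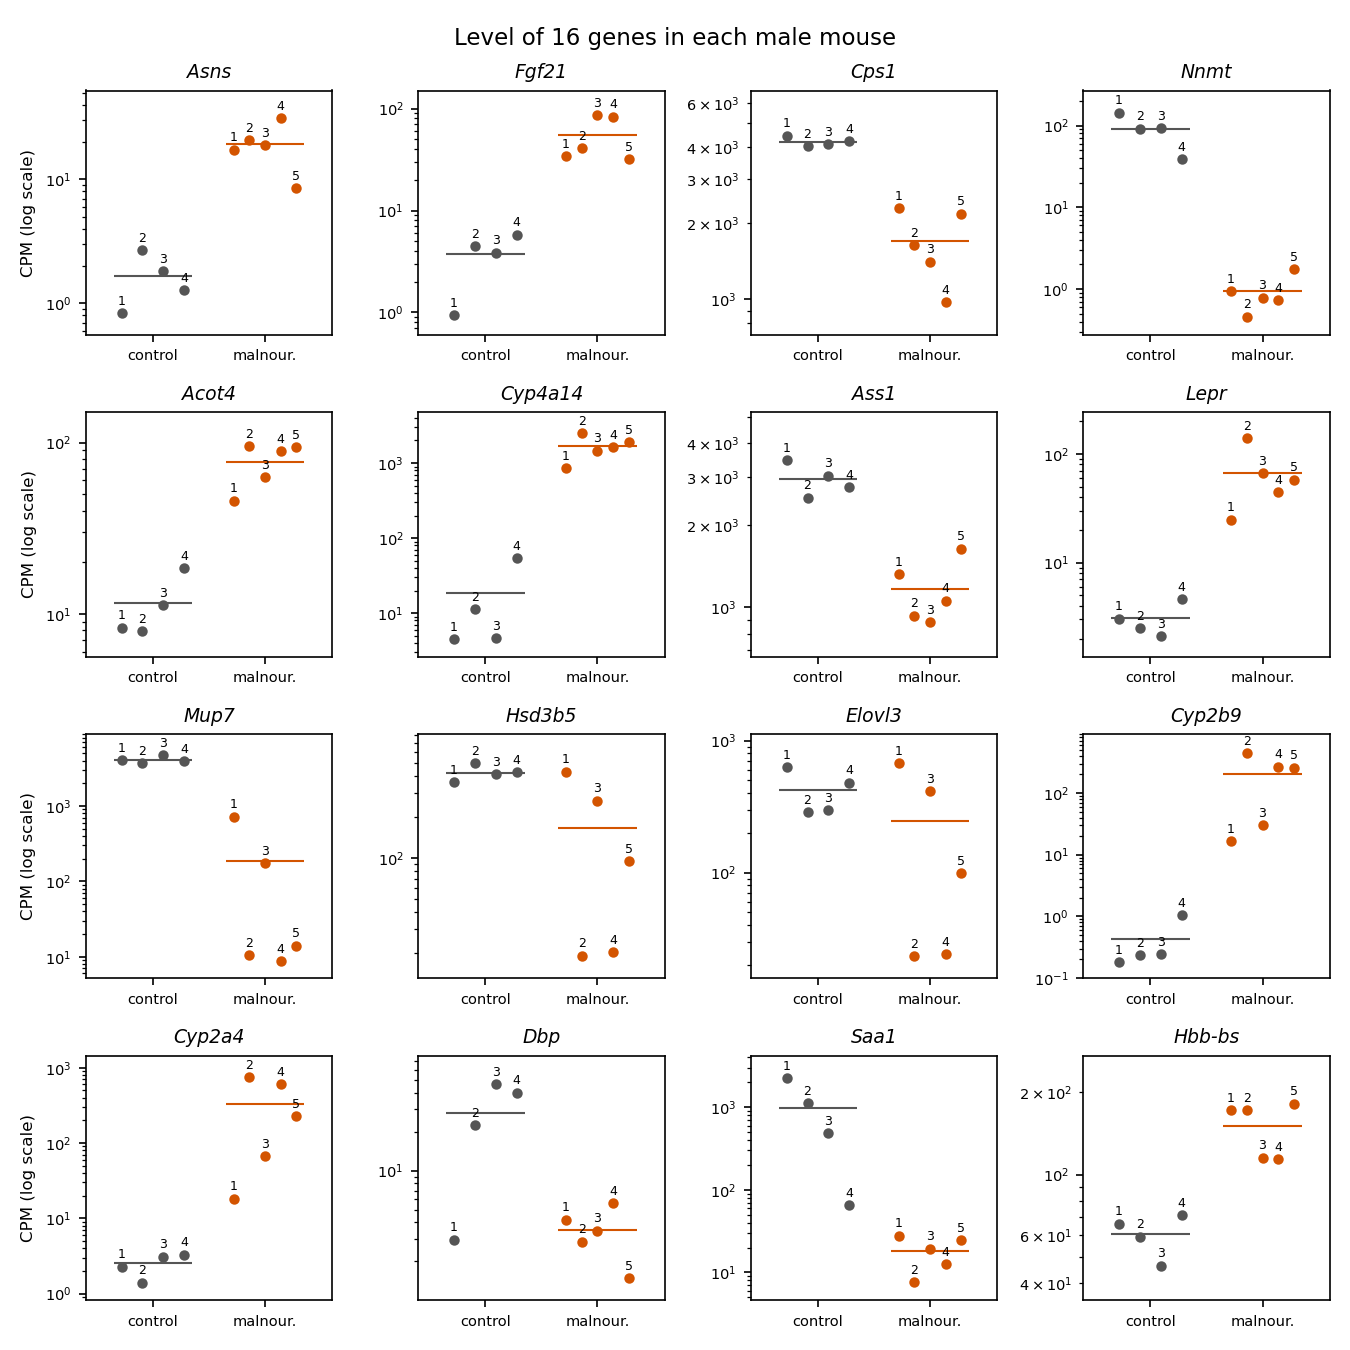
Each panel gives the level of 1 gene in CPM on a log axis, with a numbered point per mouse and a line at the group mean. Asns, Fgf21, Cps1, Nnmt, Acot4, Cyp4a14, Ass1 and Lepr separate the groups, whereas Hsd3b5 and Elovl3 are lowest in malnourished males 2, 4 and 5 and within or above the control range in malnourished male 1, and the controls are widely spread for Dbp and Saa1.

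Enzymes of drug and steroid metabolism rose more often than they fell. Of 75 P450 genes 22 rose (29.3%, against 7.11% of all tested genes) and 7 fell (9.33%, against 7.8%). Cyp4a14, a fatty acid hydroxylase under PPARα control (chromosome 4, 115486200 to 115496142), stood at 4.5, 11.3, 4.64 and 53.7 CPM in controls and at 855, 2479, 1462, 1639 and 1884 CPM in malnourished males (6.48 ± 0.72, adjusted p = 5.3e-06, and 7.95 without male control 4). Cyp2c38 rose by 3.69 ± 0.34 (6.9e-07). Among 23 glutathione S-transferases 12 rose (52.2%) and 2 fell, with a median of 0.53. Gstm4 rose by 1.35 ± 0.13 (1.6e-06) and Mgst3, a microsomal member, by 2.15 ± 0.28 (2.6e-05). Nfe2l2, which encodes their regulator NRF2, rose by 0.81 ± 0.13 (0.0003), as did its targets Nqo1 (1.64 ± 0.24, 7.4e-05) and Gclc, the first enzyme of glutathione synthesis (0.91 ± 0.15, 0.00027).

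All 7 tested flavin monooxygenases and aldehyde oxidases were called, 5 higher (71.4%, against 7.11% of all tested genes) and 2 lower (28.6%, against 7.8%). Fmo1 gave 0.84 ± 0.12 (adjusted p = 5.5e-05) and Fmo4 0.92 ± 0.17 (0.00072). Of 15 carboxylesterases 6 rose (40%, against 7.11% of all tested genes) and 3 fell (20%, against 7.8%). Ces1d, a triglyceride hydrolase, rose from 257 to 456 CPM in controls to 784 to 1216 CPM (1.64 ± 0.17, 2.3e-06), and Ces2c fell from 16.5 to 27.5 CPM to 4.43 to 9.72 CPM (-1.80 ± 0.23, 1.8e-05). Among 16 glucuronosyltransferases 3 rose and 3 fell (18.8% each, against 7.11% and 7.8% of all tested genes). Examples were Ugt1a9 (1.46 ± 0.28, 0.001) and the male-typical Ugt2b38 (-2.30 ± 0.45, 0.0014). Among 14 sulfotransferases 3 rose (21.4%, against 7.11%) and 1 fell (7.14%, against 7.8%), Sult5a1 (-2.85 ± 0.39, 4.5e-05). Hsd17b6, a steroid dehydrogenase, rose by 1.77 ± 0.28 (0.00017) and Srd5a1, which makes dihydrotestosterone, fell by 1.45 ± 0.28 (0.0012).

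Export and uptake of bile acids and organic ions shifted as well. Abcc3, which exports bile acids and conjugates into blood, stood at 40.1, 31.7, 40.2 and 59.4 CPM in controls and at 165, 297, 229, 216 and 202 CPM in malnourished males (2.37 ± 0.21, adjusted p = 3.8e-07). Slc10a2, a sodium-linked bile acid importer, stood at 56.1, 25.2, 31.2 and 18.4 CPM and at 3.53, 1.67, 4.23, 2.34 and 2.12 CPM (-3.56 ± 0.37, 2.3e-06). The groups were well apart for both. Of 14 bile acid transporters 4 rose (28.6%, against 7.11% of all tested genes) and 1 fell (7.14%, against 7.8%). Of 42 ABC transporters 8 rose (19%) and 2 fell (4.76%). The organic anion carrier Slc22a7 fell by 1.50 ± 0.30 (0.0018), although malnourished male 1, at 140 CPM, lay above male control 4, at 132 CPM.

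Secreted products took a changed share of all counts. Major urinary proteins held 2.97%, 2.70%, 2.96% and 2.44% in controls and 1.67%, 0.342%, 1.82%, 0.430% and 0.572% in malnourished males (exact two-sided permutation p = 0.016, Benjamini-Hochberg 0.025 over 8 shares). Albumin rose from 8.46% ± 0.737 (SD, n = 4) to 11.9% ± 1.86 (n = 5), with every malnourished male above every control (exact permutation p = 0.016, adjusted 0.025). Without the label series 62 neither albumin nor the Serpina family passed (exact permutation p = 0.0571 for both). The smallest p that 126 splits allow is 0.0079, which was reached by the P450 family (1.78% ± 0.0745 to 2.26% ± 0.0911). The Serpina family fell from 4.70% ± 0.417 to 2.62% ± 0.989 (exact permutation p = 0.016), and malnourished male 1, at 4.10%, lay next to male control 4, at 4.11%. Apolipoproteins did not pass the test (4.90% ± 0.198 and 5.26% ± 0.501, exact permutation p = 0.21), but without malnourished male 2 their difference grew from 0.360 to 0.563 percentage points and passed (exact permutation p = 0.0286). Mitochondrially encoded genes did not pass either (4.03% ± 0.342 and 3.75% ± 1.23, exact permutation p = 0.82), where malnourished male 5 held 1.72% and the other 4 between 3.55% and 4.77%. Scaled by edgeR, the Alb gene gave 0.40 ± 0.14 on the log2 scale (adjusted p = 0.057) and was not called, but it was with DESeq2 (0.0047), by library totals alone (0.49, 0.01) and without malnourished male 3 (0.48, 0.022).

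**Figure D4:**
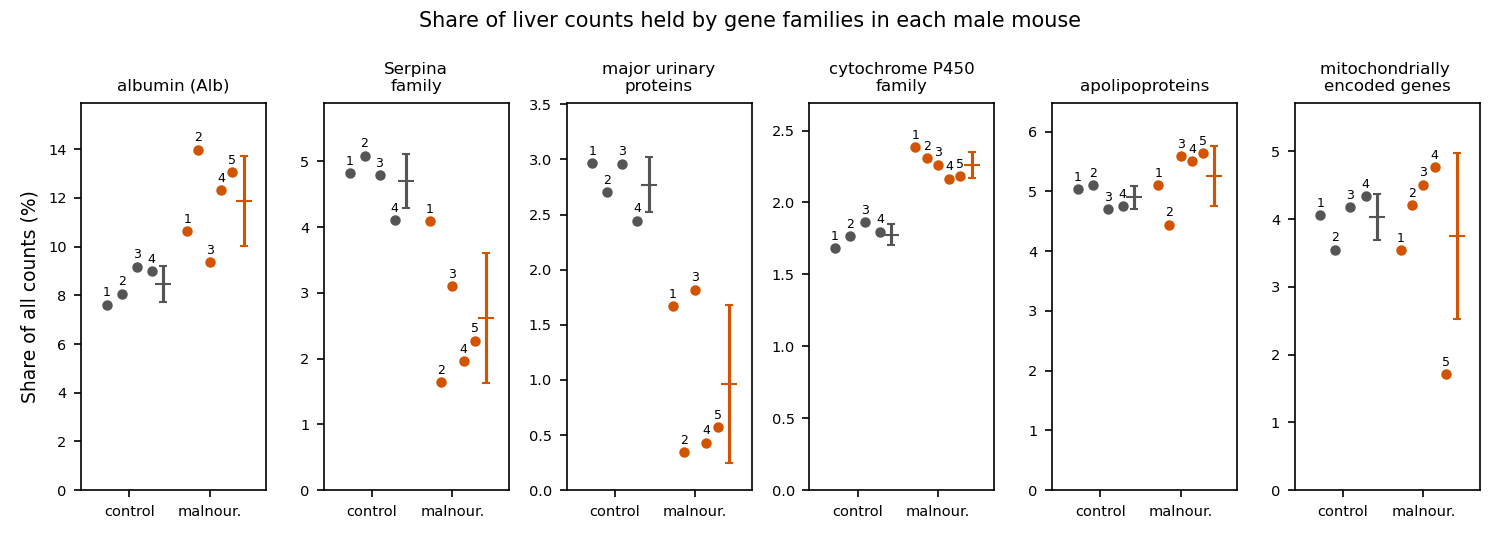
Each panel shows the share of all counts in a library held by a gene family, in percent from 0, with a numbered point per male mouse and the group mean ± SD beside the points. Major urinary proteins lie between 2.44% and 2.97% in controls and between 0.342% and 1.82% in malnourished males, and P450 genes are above the controls in all 5 malnourished males.

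The Serpina family holds protease inhibitors and hormone carriers. Of its 18 tested genes 2 rose (11.1%, against 7.11% of all tested genes) and 6 fell (33.3%, against 7.8%), with a median of -0.44. Serpina7, the thyroxine carrier, stood at 12.5 to 18.6 CPM in controls and at 34.6, 170, 56.9, 182 and 66.8 CPM in malnourished males (2.76 ± 0.44, adjusted p = 0.0002). Serpina6, the corticosteroid carrier, rose by 1.26 ± 0.22 (0.00055). Serpina1d, an antitrypsin, fell from 2954 to 3472 CPM to 1528 to 2654 CPM (-0.78 ± 0.13, 0.00034). Enho, which encodes the secreted peptide adropin, fell by 1.88 ± 0.30 (0.0002).

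The title also names coagulopathy. Of 33 genes of the contact system and clot regulation 6 fell (18.2%, against 7.8% of all tested genes) and 0 rose, with a median of -0.17, which became -0.075 when scaled by library totals alone. F11, which encodes factor XI, stood at 211, 153, 209 and 161 CPM in controls and at 150, 64.7, 95.2, 66 and 75.2 CPM in malnourished males (-1.03 ± 0.27, adjusted p = 0.013). Malnourished male 1 lay just below the lowest control. Serpina10, the protein Z-dependent inhibitor, stood at 361, 437, 356 and 215 CPM and at 254, 169, 180, 178 and 192 CPM (-0.81 ± 0.15, 0.00078), with overlap through male control 4. Serpind1, heparin cofactor II, fell by 0.55 ± 0.13 (0.007), and in the fit of male libraries alone it was not called (0.052). Serpinc1, antithrombin, gave -0.04 ± 0.09 (0.81) and turned positive when scaled by library totals alone (0.05). Klkb1, prekallikrein, gave -0.13 ± 0.15 (0.61). The fibrinogen chains Fga (-0.41 ± 0.15, 0.073), Fgb (-0.36 ± 0.13, 0.066) and Fgg (-0.27 ± 0.15, 0.22) were not called. Male control 4 held the lowest control level of all 3 chains, and without it Fga (-0.53, adjusted p = 0.012) and Fgb (-0.45, 0.016) were called. DESeq2 (0.048 and 0.037) and limma-voom (0.031 and 0.036) also called both.

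Clock genes differed between the groups. Of 20 tested 3 rose and 9 fell (45.0%, against 7.8% of all tested genes), with a median of -0.50. Npas2, a positive arm of the clock, stood at 3.23, 1.36, 1.12 and 3.13 CPM in controls and at 15.8, 21.8, 11.6, 13.8 and 18.5 CPM in malnourished males (2.85 ± 0.38, adjusted p = 3.1e-05). Dbp, an output factor with a strong daily rhythm, stood at 2.94, 22.5, 46.3 and 40 CPM and at 4.19, 2.84, 3.45, 5.61 and 1.49 CPM (-3.00 ± 0.52, 0.00053). Male control 1 lay within the malnourished range of Dbp. Per2, a negative arm, stood at 31.3, 32.9, 35.5 and 17.7 CPM and at 6.46 to 12.5 CPM (-1.57 ± 0.42, 0.014). Bhlhe41, a clock repressor, had 97 counts over the 4 controls and 3 counts over the 5 malnourished males. Arntl, the partner of Npas2, was 1.22 ± 0.36 higher (0.027), and was not called without male control 2 (1.05, adjusted p = 0.096) or male control 3 (1.03, 0.091). The hour at which each mouse was killed was not given, so the diet, the hour and the time since the last meal cannot be told apart for these genes.

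Acute phase genes were lower in malnourished males, against controls that were widely spread. Of 36 genes of cytokine signalling and the acute phase 20 fell (55.6%, against 7.8%) and 1 rose, with a median of -0.60, which became -0.37 without male control 1 and -0.79 without male control 4. The list median relative to the control mean was 0.52 in male control 1 and -0.65 in male control 4, and ran from -0.79 to -0.42 in malnourished males. Saa1, serum amyloid A, stood at 2254, 1117, 489 and 64.7 CPM in controls and at 27.9, 7.68, 19.5, 12.7 and 24.4 CPM in malnourished males (-5.73 ± 0.65, adjusted p = 6.8e-06, and -4.89 without male control 1). Orm1, orosomucoid, stood at 1693, 1274, 1192 and 724 CPM and at 282, 80.1, 193, 118 and 154 CPM (-2.88 ± 0.31, 3.4e-06). Every malnourished male was below every control for both. The chemokine Cxcl1 fell by 5.44 ± 0.79 (7.9e-05), with male control 4, at 2.12 CPM, inside the malnourished range of 1.46 to 2.97 CPM, and gave -3.89 without male control 1. Male controls 1 to 3 held 268.9, 49.9 and 43.7 CPM of Cxcl1, whereas female controls held 0.902 to 3.63 CPM and malnourished females averaged 2.82 CPM. Why those male controls were high was not tested. Stat3, which carries interleukin-6 signals to these genes, fell by 0.67 ± 0.14 (0.0022).

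The 3 tested neutrophil markers, of 9 listed, fell with the acute phase genes. Their summed level was 0.808 to 23.4 CPM in controls and 0.940 to 2.78 CPM in malnourished males. S100a9 stood at 14.2, 6.73, 2.44 and 0.505 CPM in controls and at 0.637 to 1.8 CPM in malnourished males (-2.52 ± 0.58, adjusted p = 0.0053), a marker singled out after its values were seen. Without male control 1 neither S100a9 (-1.59, 0.059) nor S100a8 (-1.27, 0.12) was called. In whole tissue, fewer cells of a type and less RNA per cell cannot be told apart. The part of these cells in the acute phase values was not tested.

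Iron and haem genes fell in 10 of 32 cases (31.2%, against 7.8% of all tested genes) and rose in 4 (12.5%, against 7.11%). Scara5, a ferritin receptor, stood at 35.2, 38.3, 25.9 and 20.3 CPM in controls and at 1.25, 0, 0.13, 0.0366 and 0.394 CPM in malnourished males (-6.42 ± 0.53, adjusted p = 1.5e-07, and -7.61 without malnourished male 1). Steap4, a metal reductase, fell by 2.55 ± 0.35 (4.9e-05, and -1.97 without male control 1), Lcn2, an iron-scavenging lipocalin, by 4.54 ± 0.77 (0.00037, -2.74 without male control 1 and -5.27 without the label series 62), and the zinc and iron carrier Slc39a14 by 0.97 ± 0.14 (9.9e-05). Among 18 glucocorticoid targets 5 fell (27.8%, against 7.8%) and 1 rose (5.56%, against 7.11%). Tat, tyrosine aminotransferase, stood at 3706, 1336, 1998 and 881 CPM in controls and at 755, 382, 473, 289 and 542 CPM (-2.02 ± 0.37, 0.00085). Mt1, a metallothionein induced by metals and by glucocorticoids, was not called (-2.50 ± 0.85, 0.052). Its level was 552 CPM in male control 1 and 8.22 to 31.7 CPM in the other controls, and without that mouse its sign turned (0.49, adjusted p = 0.62). Without the label series 62 it was called (-3.43, adjusted p = 0.0058), as it was without male control 2, 3 or 4 (0.042, 0.031 and 0.015) or malnourished male 5 (0.033).

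Markers of cells other than hepatocytes moved in some cases, and the marker genes named from here on were chosen after their values were seen. Red cell genes rose in 6 of 7 cases (85.7%, against 7.11% of all tested genes). Their summed level was 244 to 280 CPM in controls and 294 to 487 CPM in malnourished males. Hbb-bs, a beta-globin, stood at 66.2, 59.3, 46.5 and 71 CPM in controls and at 172, 172, 115, 114 and 181 CPM in malnourished males (1.31 ± 0.21, adjusted p = 0.00026), and Hba-a1, an alpha-globin, rose by 1.27 ± 0.26 (0.0019). Alas2, the haem enzyme of red cells, went the other way (-1.30 ± 0.28, 0.0029), from 109 to 147.6 CPM in controls to 24.4 to 100.9 CPM. These levels are part of the sums above. In female controls Alas2 averaged 11.9 CPM and Hbb-bs 115.6 CPM, so Alas2 did not follow the globins across groups. B cell genes rose in 4 of 6 cases (66.7%, against 7.11%) at low levels, such as Cd79a (0.146 to 0.640 CPM against 1.02 to 1.76 CPM, 1.51 ± 0.31, 0.002). None of 11 stellate cell, 10 sinusoidal endothelium or 7 cholangiocyte markers was called by edgeR. Of 8 T and NK cell markers 1 fell (12.5%, against 7.8%) and 0 rose, with a median of 0.46. Of 9 exocrine pancreas markers listed 2 were tested, of which 1 fell and 0 rose. Their summed level was 33.7 to 46.6 CPM in controls and 7.42 to 27.2 CPM in malnourished males. Of 11 Kupffer cell markers 1 was called, Timd4 (0.40 ± 0.12, 0.033). Leaving out male control 1 (0.063), 2 (0.061) or 4 (0.055), malnourished male 2 (0.065) or 5 (0.070), or the label series 62 (0.11), ended that call.

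Hepatocyte genes of the portal side of the lobule fell in 6 of 9 cases (66.7%), with a median of -0.79. They included Sds, which degrades serine (-1.96 ± 0.37, adjusted p = 0.0011), Gls2, the liver glutaminase (-1.32 ± 0.20, 0.00016), and Cyp2f2 (-0.92 ± 0.19, 0.0026). Sds and Gls2 also degrade amino acids, and position in the lobule and that function cannot be told apart here. Of 10 genes of the central side 2 rose (20%, against 7.11% of all tested genes) and 3 fell (30%, against 7.8%). Tbx3, a transcription factor, stood at 9.48, 7.16, 8.79 and 27.3 CPM in controls and at 43.7, 32.6, 51, 29.7 and 77.2 CPM in malnourished males (1.82 ± 0.36, 0.0016, and 2.49 without male control 4). Axin2, a target of WNT signals, rose by 1.19 ± 0.28 (0.0054), and Oat, ornithine aminotransferase, fell by 1.09 ± 0.29 (0.014), though not in the fit of male libraries alone (0.054).

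Other genes with large and non-overlapping changes are given here, of which Selenbp2 is also on the male-typical list. Rad51b, a recombination repair gene (chromosome 12, 79297282 to 79814690), stood at 0.763, 1.21, 0.781 and 0.808 CPM in controls and at 10, 71.9, 29.2, 69.6 and 38.7 CPM in malnourished males (5.62 ± 0.57, adjusted p = 2e-06). Ntrk2, a receptor for brain-derived neurotrophic factor, stood at 6.2 to 7.37 CPM and at 0.391 to 0.666 CPM (-3.74 ± 0.40, 3.4e-06). Both were uniform in direction, and Rad51b was lowest in malnourished males 1 and 3. The lectin-like gene Clec2h fell by 4.24 ± 0.45 (2.7e-06), the leucine-rich repeat gene Lrtm1 by 3.86 ± 0.45 (7.7e-06), the selenium-binding protein Selenbp2 by 3.39 ± 0.58 (0.00045, and -4.46 without malnourished male 1) and the predicted gene Gm3839 by 4.89 ± 0.24 (1.2e-10). Btg2, which restrains cell division, fell by 1.98 ± 0.25 (2.1e-05). Cdkn1a, a brake on the cell cycle, stood at 34.4 to 68.6 CPM in malnourished males and at 10.8, 8.98 and 8.96 CPM in male controls 2 to 4, but at 61.3 CPM in male control 1. It was not called (1.14 ± 0.55, 0.18), but was without that control (2.39, adjusted p = 0.0027) and with limma-voom (1.82, 0.0065).

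Large sets of housekeeping genes showed few calls. Of 80 cytosolic ribosomal protein genes edgeR called 0, with a median of 0.18 against -0.00073 for all tested genes. Calls were also few among 77 mitochondrial ribosomal proteins (2), 38 proteasome subunits (1), 78 respiratory chain subunits (1), 27 interferon-stimulated genes (3), 16 antigen presentation genes (1) and 28 autophagy and lysosome genes (6, all lower). These shares lie at or below the 14.9% of all tested genes, except in the autophagy list, where 21.4% fell against 7.8%.

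The response of males was set against that of females by testing the difference of the log2 changes, female minus male, in the same fit. Of 13391 genes 280 (2.09%) differed, 113 higher and 167 lower in females, and 227 of them were among the 1997 called in males. These counts rested on single libraries. They were 63 higher and 95 lower without male control 2, 229 and 379 without male control 4, 72 and 110 without malnourished female 3, and 240 and 274 without female control 5. Those higher numbered 73 without malnourished female 1 and 69 without female control 1. Of the female-typical genes, Cyp2b9, Cyp2a4, Slc22a26 and Prlr differed. Cyp2b9 was 8.97 ± 1.04 lower in the female response (adjusted p = 0.00013), with female group means of 638.7 and 570.9 CPM. By list, 24 of 36 female-typical, 5 of 32 male-typical and 3 of 21 Mup genes differed between the sexes, against 2.09% of all tested genes. Some male-typical genes had few counts in females, where a difference is hard to call. Cyp4a12a, with female group means of 0.119 and 0.0739 CPM, gave 0.94 ± 2.25 (adjusted p = 0.88). Fat-burning genes also differed, with Acot4 at -2.64 (0.00024), Hao2 at -6.44 (0.00029), Abcd2 at -2.44 (0.0015) and Cyp4a14 at -6.15 (0.00029). Hao2 and Cyp4a14 are also on the female-typical list. Acot4 and Abcd2 were higher in female than in male controls too, with means of 84.9 against 11.5 CPM and 92.3 against 13 CPM. In malnourished males they averaged 77.3 and 59.5 CPM. Lepr (-3.28, 0.0013), Nr1i3 (-1.61, 0.00035), Abcc3 (-1.64, 0.0016) and Vldlr (-2.39, 0.0078) rose more in males, and their fitted changes in females were 1.15, 0.03, 0.73 and 0.66. Abcc3 too was higher in female than in male controls (means of 131.6 against 42.9 CPM). After malnutrition its means were 218.3 CPM in females and 221.7 CPM in males. Saa1 (4.55, 0.0031) and C6 (2.83, 0.007) fell more in males, and their fitted changes in females were -1.19 and -0.88.

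Among 21 ATF4 targets 2 differed between the sexes, Vldlr and Stbd1 (1.12 ± 0.29, adjusted p = 0.047), the latter chosen after its values were seen. No such difference was called for 6 other amino acid genes described above. The interaction was 1.39 ± 0.63 for Asns (adjusted p = 0.27), -0.68 ± 0.77 for Fgf21 (0.71), 0.00 ± 0.41 for Csad (1.00), 0.18 ± 0.47 for Nnmt (0.89), -0.09 ± 0.36 for Cps1 (0.93) and 0.08 ± 0.32 for Ass1 (0.93). A p above the threshold does not show that the sexes responded alike, and the SE of each difference is given for that reason. Slco1a1, a male-typical organic anion carrier, differed in the other sense, with -0.79 ± 0.46 in males (0.27) and a fitted -6.60 in females (interaction -5.81, adjusted p = 0.00018). In males it stood at 362 to 573 CPM in controls and at 524, 125, 385, 99.5 and 194 CPM on the poor diet.

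**Figure D5:**
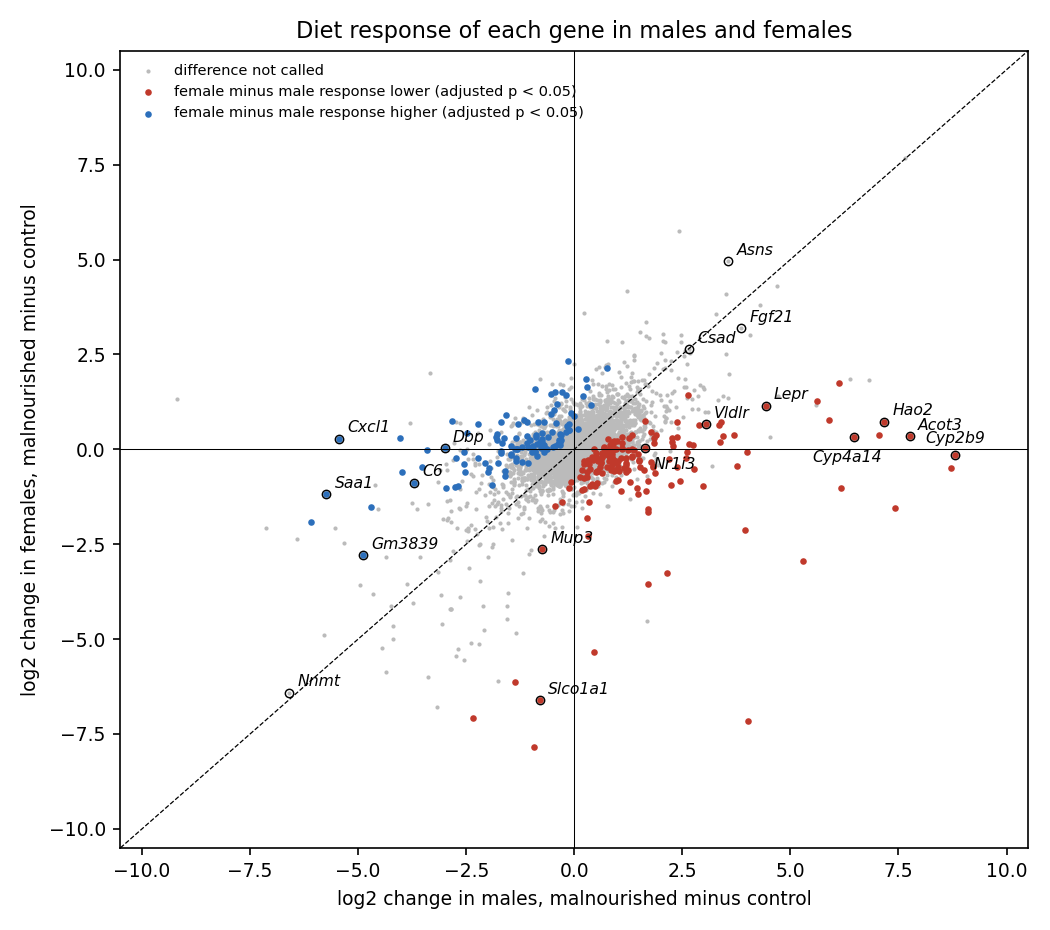
Each point is 1 of 13391 tested genes, with its log2 diet response in males on the horizontal and in females on the vertical axis, and a dashed line of equal response. Coloured points are the 280 genes whose responses differed, and Asns, Fgf21, Csad and Nnmt lie near the dashed line while Cyp2b9, Acot3 and Hao2 lie far to its right.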

How the data were processed

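RNA of whole liver was sequenced for 19 mice, 9 of them male. The authors deposited raw counts of reads per gene for 21950 genes. Per the submitters' processing notes, Trim Galore, HISAT2, featureCounts and the genome build mm10 were used. Versions, the annotation and the strand setting of the counting are not given in the sources used here, so overlapping genes, antisense genes and near-identical copies are uncertain. Spreadsheet dates that had replaced 27 gene symbols were resolved from the gene identifiers, and coordinates were taken from GENCODE release 21 (mm10).

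All 19 libraries entered 1 edgeR 4.0.16 quasi-likelihood fit (R 4.3.3) with a mean for each of the 4 groups of sex and diet, TMM scaling and the filterByExpr filter, which left 13391 genes. Levels are TMM-scaled CPM. Changes are log2 malnourished minus control in males, with SE computed as the change divided by the root of F, and p-values adjusted by Benjamini-Hochberg over all tested genes and called below 0.05. Unless it is named otherwise, a value after ± beside a log2 change is the SE, and the number after it in parentheses is this adjusted p. Shares of counts were tested with exact two-sided permutation tests. The script was checked on simulated counts. Male library totals of 22891805 to 32828713 limit precision for genes with few counts.

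Members and lists were chosen with earlier results of these data known. Genes were named by rule: the 15 largest called, non-overlapping changes in each direction at a mean of at least 2 CPM, up to 3 called members per list by adjusted p, key members of the lists, and the 10 genes with most counts. Not every gene so named is printed. Alternatives were other scalings and filters, DESeq2 1.42.0, limma 3.58.1 (voom), male libraries alone, the label series, the replicate number as a block, and leaving out each library.

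A few genes of the lists are not reported here by name, and list counts include them.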

Additional observations from a re-analysis of the deposited data

Results flagged for a closer look

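Single mice stood apart from the rest of their group by Dixon's criterion in 24 cases among the genes described, values being CPM. The criterion was applied to 154 genes and 8 shares in both male groups, and chance gives such a gap in about 1 group in 20. Many of these cases may therefore be chance. In male control 1 the levels of Cdkn1a (61.3), Mt1 (551.6) and Ppard (19.5) lay apart from the rest of the group. Male control 2 stood apart for Aldh18a1 (4.83), Rad51b (1.21) and Tdo2 (994.3). In male control 4 the levels of Cyp2b9 (1.04), Cyp4a14 (53.7) and Tbx3 (27.3) lay apart from the rest of the group. Malnourished male 1 stood apart for Moxd1 (0.0392), Mup7 (724.9), Pfkfb3 (14.5), Selenbp2 (659), Serpina10 (253.5), Slc22a7 (139.6), Sult5a1 (5.64) and Susd4 (4.74). In malnourished male 2 the levels of Hba-a1 (74.9) and Slc16a1 (184.8) lay apart from the rest of the group. Malnourished male 3 stood apart for Apoc2 (5.47) and Cd79a (1.76). In malnourished male 4 the levels of Cish (98.1) and Phgdh (8.21) lay apart from the rest of the group. Malnourished male 5 stood apart for Cebpb (8.01).

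The diet response differed between the sexes for 40 genes described (edgeR interaction, adjusted p under 0.05), given as the log2 response of females minus that of males. It was most negative for Cyp2b9 (-8.97), Acot3 (-7.40), Slc22a26 (-7.20), Cyp2a4 (-6.67), Hao2 (-6.44), Cyp4a14 (-6.15), Slco1a1 (-5.81) and Rad51b (-4.35). It was also negative for Cyp2c38 (-3.31), Lepr (-3.28), Acot2 (-2.68), Acot4 (-2.64), Prlr (-2.48), Ugt1a9 (-2.48), Abcd2 (-2.44) and Vldlr (-2.39). Smaller negative values belonged to Tbx3 (-2.26), Ppp1r3c (-1.99), Mup3 (-1.89), Axin2 (-1.80), Abcc3 (-1.64), Nr1i3 (-1.61), Acot6 (-1.52) and Trim24 (-1.38). The remaining negative values were those of Apoc2 (-1.32), Slc16a7 (-1.25), Slc16a1 (-1.08), Ces1d (-0.90) and Fmo1 (-0.72). Positive values were found for Alas2 (1.96), Btg2 (1.49), C6 (2.83), Ces2c (2.20), Cxcl1 (5.72), Dbp (3.02), Gm3839 (2.09), Saa1 (4.55), Slc2a5 (1.56), Slc39a14 (0.90) and Steap4 (2.17). Of these, Mup3 and Slco1a1 were not called in males.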

How the results depend on the processing

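For gene calls and list medians, runs that left out a female library were not counted. Of 131 called genes described above, 121 kept their call under every other alternative, 10 lost it under at least 1, and 0 changed sign. The medians of the 24 lists tested for this kept their sign. Leaving out single male libraries gave 694 to 1195 genes that rose and 711 to 1085 that fell, and the male libraries alone gave 627 and 617. Genes whose response differed between the sexes numbered 245 higher and 370 lower with DESeq2, 305 and 350 with limma-voom, and 380 and 470 without label series 62, and ranged from 63 to 240 and from 95 to 379 when single libraries were left out. Uncalled values that changed sign were Atf4 (-0.00299 with limma-voom, -0.0283 to 0.131 over single libraries left out), Igf1 (0.0249 without series 62), Serpinc1 (0.0518 by library totals) and Mt1 (-3.03 to 0.49 over single libraries left out). Differences in share of counts, in percentage points, did not pass the test without series 62 for the Serpina family (-2.20), albumin (3.29) and the 10 genes with most counts (3.094, exact permutation p = 0.0571 for each). The mitochondrial share turned positive without series 62 (0.327) and ran from -0.539 to 0.225 over single libraries left out, and the apolipoprotein share ran from 0.263 to 0.563. The causes were not tested.

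With the replicate block 901 genes rose and 1055 fell. Same-numbered males did not deviate together (correlations of 0.09, -0.11, 0.03 and -0.01), and 0 controls correlated best with their own number, so the mice share only a number. The 4 pairs cannot reach an exact p below 0.125, which is what the replicate block gave for the shares of Mup (-1.71), Serpina (-1.999), P450 (0.503), albumin (3.12) and the top 10 genes (2.79), and the mitochondrial share was 0.225. Depth limits genes such as Mogat1 and Slc22a26, which lie below 1 CPM in all controls.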
